A study of Homo sapiens with 4 samples.

Results

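The expression of 10 matricellular and receptor genes was followed: 3 thrombospondins (THBS1, THBS2 and THBS3), 5 other secreted matricellular proteins (SPARC, TNC, POSTN, TGFBI and SPOCK1) and the thrombospondin receptors CD36 and CD47. They were taken by gene symbol, and all 10 were found among the 26255 genes of the files. Messenger RNA had been sequenced from MRC5, a widely used human fibroblast line from fetal lung that is labelled wild type, with 2 libraries given no treatment (control) and 2 treated with miRs (microRNAs, short RNAs that pair with messenger RNAs and lower their level), taken at 48 h. Which microRNAs were given is not stated, and the series title speaks of a negative-control microRNA where the control samples are labelled untreated. Nothing in the labels says that the replicates were separate cultures, so the p-values reflect how far these libraries scatter, which may be technical variation.

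Matricellular proteins are secreted into the extracellular matrix, where they act on cells and growth factors more than they bear load. Thrombospondins bind calcium, collagens and cell-surface receptors, and thrombospondin-1 also activates latent TGF-beta, the cytokine that in turn induces TGFBI, POSTN, TNC and THBS1 in fibroblasts. In lung these proteins are known from wound repair and fibrosis, where fibroblasts make most of them.

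Values are FPKM (fragments per kilobase of transcript, scaled by library), so levels can be set side by side between genes. Between 11622 and 11781 genes per library reached 1 FPKM. The number of reads is unknown, and the worth of 1 fragment, read from steps between low values, lay between 0.892 and 1.05 times that in control replicate 1. All 10 fibroblast markers examined, among them COL1A1, VIM and PDGFRA, were above 1 FPKM on average, with summed levels of 9978 and 10108 FPKM in the controls and 6702 and 11558 FPKM with miRs. That sum is mostly collagen and VIM. Of the 10, THY1, VIM, DCN, LUM and FAP (5 genes) were lower in both miRs libraries than in either control, among them the proteoglycan DCN (963 and 1223 FPKM in the controls, 352 and 419 FPKM with miRs) and the protease FAP (30.5 and 33.8 FPKM, then 7.91 and 11.7 FPKM), and the other 5 overlapped. Epithelial markers were 6 genes, of which 4 averaged 1 FPKM or more. They summed to 28.9 and 31.8 FPKM in the controls and 186 and 264 FPKM with miRs. Most of each sum came from the keratin KRT18 (17.7 and 19.4 FPKM in the controls, 136.8 and 194.3 FPKM with miRs). For 5 of the 6 (EPCAM, KRT8, KRT18, KRT19 and CLDN7) the groups did not overlap, the miRs values lying above the control values. Among all genes averaging 1 FPKM or more, 30.0% were lower and 29.5% higher in miRs with no overlap between the groups. The epithelial cadherin CDH1 was listed at 0 in 3 of the 4 libraries. The 2 miRs libraries were further apart than the 2 controls. Of 11860 genes averaging 1 FPKM or more, 1129 differed over 2-fold between the miRs libraries and 253 between the controls. The correlation of log2(FPKM + 1) was r = 0.949 between the miRs libraries and r = 0.985 between the controls. Interferon-induced genes were among those that differed: the antiviral GTPase MX1 was at 795 FPKM in miRs replicate 1 and 190.1 FPKM in miRs replicate 2, against 0.920 and 1.35 FPKM in the controls. The part of these differences in the results that follow was not tested.

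The clearest contrasts among the 10 genes were a lower THBS1, 3.34-fold below control on average, and a higher SPARC, 1.70-fold above control. Neither passed the test over all genes. POSTN, THBS3 and TNC were lower by smaller margins, with both miRs libraries below both controls, and the other 5 had groups that overlapped. The test was limma on log2(FPKM + 1) with Benjamini-Hochberg adjustment over the 11860 genes that averaged 1 FPKM or more. It called 29 of them (0.245%) at an adjusted p of 0.05, with 12 (0.101%) on the higher and 17 (0.143%) on the lower side. That number was 0 without control replicate 1, 1 without control replicate 2, 1653 without miRs replicate 1 and 3746 without miRs replicate 2, where a group of 1 library is assumed to vary like the remaining group. Of the 10 genes 0 were called, CD36 being too low to enter. At an unadjusted p under 0.05, which 2872 of all tested genes (24.2%) reached, there were 3, SPARC on the higher side (11.2% of tested genes) and THBS1 and POSTN on the lower side (13.0%). Groups did not overlap in 5 of the 10, where 59.5% of all tested genes had this property, so that count is near the background. Over all 10 genes, with no filter, the median difference between miRs and control was −0.22 on the log2(FPKM + 1) scale. It was 0 over all 26255 genes, of which between 10068 and 10428 were at 0 FPKM in each library. Over the 9 tested members it was −0.26, beside −0.0020 over all tested genes. Without control replicate 1 the median of the 10 genes was −0.023, and without control replicate 2 it was −0.41.

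**Figure D1:**
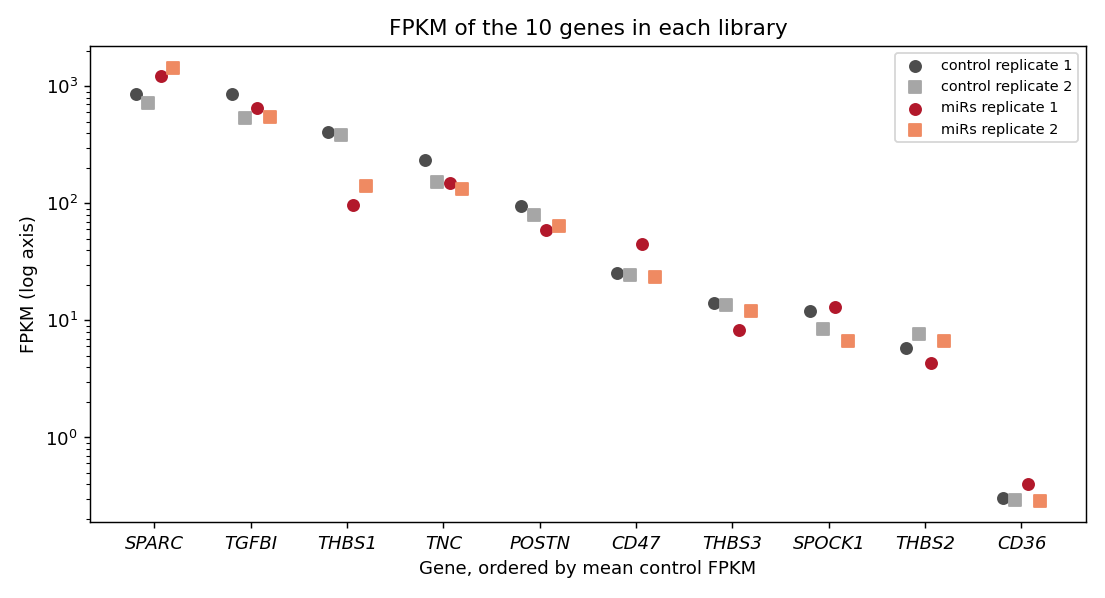
FPKM (log axis) of each of the 10 genes in the 4 libraries, with genes ordered by mean control level. SPARC lies higher in both miRs libraries (1234 and 1446 FPKM) than in both controls, and THBS1 lower (97.6 and 140.2 FPKM).

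THBS1 encodes thrombospondin-1, the trimeric family member that binds CD36 and CD47 and activates latent TGF-beta. It was at 409.9 FPKM in control replicate 1 and 385 FPKM in control replicate 2, and at 97.6 FPKM in miRs replicate 1 and 140.2 FPKM in miRs replicate 2. In bulk RNA, fewer cells expressing a gene and less of its RNA per cell cannot be told apart. The groups were far apart: the controls differed by 1.07-fold and the miRs libraries by 1.44-fold, while the mean of the controls was 4.07 times the level in miRs replicate 1 and 2.83 times that in miRs replicate 2. The mean was 397 ± 17.8 FPKM without and 119 ± 30.2 FPKM with miRs (SD, n = 2 each). The log2 difference was −1.75 ± 0.21 (SE), with an unadjusted p of 0.000593 and an adjusted p of 0.0632 in limma, rank 105 of 11860 by p. Limma called the gene only where miRs replicate 1 (log2 difference −1.496, adjusted p = 0.00887) or miRs replicate 2 (−2.01, adjusted p = 0.00223) was left out. Among all genes of the files THBS1 ranked 187 by mean control level and 638 by mean miRs level. It lies on chromosome 15, and in RefSeq (GRCh38.p14, another build than the hg19 of the submitters' processing notes) its span overlaps that of FSIP1, which stayed between 0.157 and 0.170 FPKM in the 4 libraries.

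Since microRNAs act through short matches to their seed (bases 2 to 8), the longest annotated 3′ untranslated regions of the 10 genes (GENCODE 29) were searched, on the transcript strand, for exact matches to 6 seed families. Of these, let-7, miR-18, miR-19 and miR-29 are known as regulators of thrombospondins, CCN proteins or SPARC and collagens, miR-200 is known for holding the epithelial state and miR-302 for pluripotency. Whether any of them was among the microRNAs used is not stated in the labels. The mature sequences whose matches are shown next are given from RefSeq (GRCh38.p14), 5′ to 3′, with the seed in capitals.
hsa-miR-18a-5p: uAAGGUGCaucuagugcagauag
hsa-miR-19b-3p: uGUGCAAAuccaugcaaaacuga
hsa-miR-29b-3p: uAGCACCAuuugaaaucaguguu
hsa-miR-200c-3p: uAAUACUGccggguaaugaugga
hsa-miR-302a-3p: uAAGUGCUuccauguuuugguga

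The 3′ region of THBS1, 4097 bases long, held 1 match each for miR-18 (GCACCTT, from base 49), miR-19 (TTTGCAC, from base 1863) and miR-200bc (CAGTATT, from base 3492), and none for let-7 (CTACCTC), miR-29 (TGGTGCT) or miR-302 (AGCACTT). Bases are counted from 1 after the stop codon. The 3 stretches of 30 bases are shown 5′ to 3′ with the match in capitals, since THBS1 was the member with the largest difference.
THBS1 miR-18 match: accaatgctggtattGCACCTTctggaact
THBS1 miR-19 match: tatttttatataatgTTTGCACactgaatt
THBS1 miR-200bc match: atgtagaaaagcctcCAGTATTaagctcct
Such matches are common in regions of this length. Of 1650 genes with a 3′ region within 20% of that of THBS1, 21.1% held the miR-18 match, 31.0% the miR-19 match and 37.8% the miR-200bc match, against 8.78%, 13.5% and 16.0% of all 19037 genes with such a region. A match is a stretch of letters and does not show that a site is used.

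THBS2 and THBS3, the thrombospondins present at lower level, had smaller log2 differences than THBS1. THBS2, which like THBS1 forms trimers with type 1 repeats, measured 5.84 and 7.66 FPKM in the first and the second control and 4.36 and 6.71 FPKM in the first and the second miRs library. Its groups overlapped, miRs replicate 2 lying between the controls (log2 difference −0.26 ± 0.24 SE, adjusted p = 0.545 in limma). THBS3, a pentameric member that lacks type 1 repeats, measured 14.2 and 13.6 FPKM in the controls and 8.23 and 12.0 FPKM with miRs. Both miRs values were below both controls, miRs replicate 1 by the wider margin, and the log2 difference was −0.44 ± 0.20 (SE; adjusted p = 0.270 in limma). It depended on that library: leaving out miRs replicate 1 gave −0.19 and leaving out miRs replicate 2 gave −0.69, where limma called it (adjusted p = 0.0202). THBS3 overlaps the mitochondrial import gene MTX1 and an antisense RNA in RefSeq (GRCh38.p14), and the strand setting is not given in the sources used here, so its level is uncertain. MTX1 measured 25.4 and 25.9 FPKM in the controls and 22.5 and 27.9 FPKM with miRs.

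Within the thrombospondins THBS1 made up most of the signal in every library. It held 95.3% and 94.8% of the summed FPKM of the 3 genes in control and 88.6% and 88.2% in miRs. The sum itself was 429.9 and 406 FPKM in the controls and 110.1 and 159 FPKM with miRs. The ratio of THBS1 to THBS2, which a scaling by 1 factor per library cannot change, was 70.2 and 50.3 in the controls and 22.4 and 20.9 in the miRs libraries, with no overlap between the groups.

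SPARC encodes osteonectin, a collagen-binding glycoprotein that helps fibrillar collagen to assemble. It measured 858 and 719 FPKM in the first and the second control and 1234 and 1446 FPKM in the first and the second miRs library. Both miRs libraries were above both controls, and the gap within each group (1.19-fold in control, 1.17-fold in miRs) was smaller than that between the groups. The mean was 788 ± 98.1 FPKM without and 1340.3 ± 150 FPKM with miRs (SD, n = 2 each), a log2 difference of 0.77 ± 0.16 (SE) with an unadjusted p of 0.00666 and an adjusted p of 0.0983 in limma. As for THBS1, a call was made only without miRs replicate 1 (0.88, adjusted p = 0.0346 in limma) or without miRs replicate 2 (0.65, adjusted p = 0.0350). SPARC ranked 104 by mean control level among all genes of the files and 38 by mean miRs level. The collagen chain COL1A1, which SPARC protein binds, measured 2337 and 2521 FPKM in the controls and 1910 and 4742 FPKM with miRs, so its groups overlapped while those of SPARC did not.

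The 3′ region of SPARC (chromosome 5), 2475 bases long, held 1 match each for miR-19 (from base 1258), miR-302 (from base 1915) and miR-29 (from base 2187), and none for the other 3 families. They are shown because SPARC is a widely cited miR-29 target and was the gene with both miRs libraries above both controls.
SPARC miR-19 match: caaacacattatgctTTTGCACacacacac
SPARC miR-302 match: atcataagactacagAGCACTTttcaaagc
SPARC miR-29 match: agagattggcccattTGGTGCTggccattt
The miR-19 match was thus present both in THBS1, lower in miRs, and in SPARC, higher in miRs. Over the 10 genes, 6 held a miR-19 match, 4 a miR-302 match, 3 a miR-200bc match, 2 a miR-18 match, 2 a miR-29 match and 0 a let-7 match. Over all 19037 genes with such a region the shares were, in that order, 13.5%, 21.4%, 16.0%, 8.78%, 14.3% and 9.62%. Over the 1650 genes near the length of THBS1 they were 31.0%, 49.8%, 37.8%, 21.1%, 30.8% and 21.3%. The 10 regions differ in length, up to 4190 bases in CD47, so neither share is a matched background, and the counts were not tested. THBS3, with a 3′ region of 253 bases, held none of the 6.

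The summed level of the 10 genes did not differ clearly between the groups, while the shares of SPARC and THBS1 in it did not overlap. The 10 genes summed to 2515 and 1921 FPKM in the controls and 2270 and 2374 FPKM with miRs, so the totals overlapped. SPARC accounted for 34.1% and 37.4% of that sum in control and 54.4% and 60.9% in miRs, and THBS1 for 16.3% and 20.03% in control and 4.30% and 5.90% in miRs. The ratio of SPARC to THBS1 within a library was 2.09 and 1.87 in the controls and 12.7 and 10.3 in the miRs libraries. The mean ratio was 5.80-fold higher in miRs. SPARC and THBS1 were picked as the tested genes with the largest difference in each direction. Their ratio therefore had to separate the groups, and it adds no evidence to the single genes. Neither gene passed in limma over all genes.

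**Figure D2:**
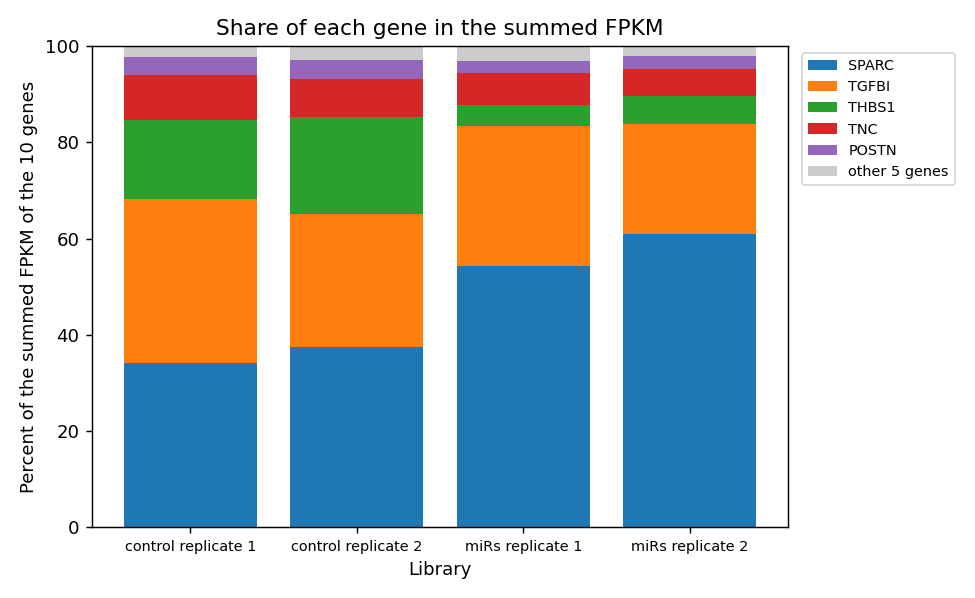
Percent of the summed FPKM of the 10 genes held by SPARC, TGFBI, THBS1, TNC, POSTN and the other 5 genes together, as stacked bars, 1 bar per library. The SPARC part is larger in both miRs libraries (54.4% and 60.9%) and the THBS1 part smaller (4.30% and 5.90%) than in the controls.

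TGFBI and POSTN, the pair of proteins built from fasciclin domains, and tenascin-C (TNC), an oligomeric glycoprotein of wounds and developing tissue, are all known TGF-beta targets. POSTN, or periostin, measured 94.7 and 78.8 FPKM in the controls and 59.1 and 64.3 FPKM with miRs. Both miRs values lay below both controls, and the log2 difference was −0.48 ± 0.15 (SE), with an unadjusted p of 0.0273 and an adjusted p of 0.160 in limma. TNC measured 237 and 152 FPKM in the controls and 151 and 132 FPKM with miRs. Its groups were apart by a narrow margin only, control replicate 2 lying at 151.8 FPKM and miRs replicate 1 at 150.8 FPKM, and the controls themselves differed by 1.56-fold (log2 difference −0.42 ± 0.25 SE, adjusted p = 0.358 in limma). The TNC difference was −0.10 without control replicate 1 and −0.74 without control replicate 2.

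TGFBI, an adhesion protein that binds integrins and collagen, measured 859 and 532 FPKM in the controls and 658 and 542 FPKM with miRs. The miRs values lay between the controls, which were 1.61-fold apart, and the log2 difference was −0.18 ± 0.27 (SE; adjusted p = 0.712 in limma). Its direction turned to 0.17 without control replicate 1. Control replicate 1 was the higher control for TGFBI and TNC, as it was for all the other genes followed except THBS2. The ratio of TNC to TGFBI was closer between libraries than either level: 0.276 and 0.285 in control, 0.229 and 0.244 in miRs.

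SPOCK1, or testican-1, is a proteoglycan with a SPARC-like calcium-binding domain. It measured 12.1 and 8.39 FPKM in the controls and 13.0 and 6.65 FPKM with miRs. The miRs libraries lay on either side of both controls, 1.96-fold apart (log2 difference −0.10 ± 0.35 SE, adjusted p = 0.877 in limma). Leaving out miRs replicate 1 gave −0.54 and leaving out miRs replicate 2 gave 0.34, so these data give it no direction.

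**Figure D3:**
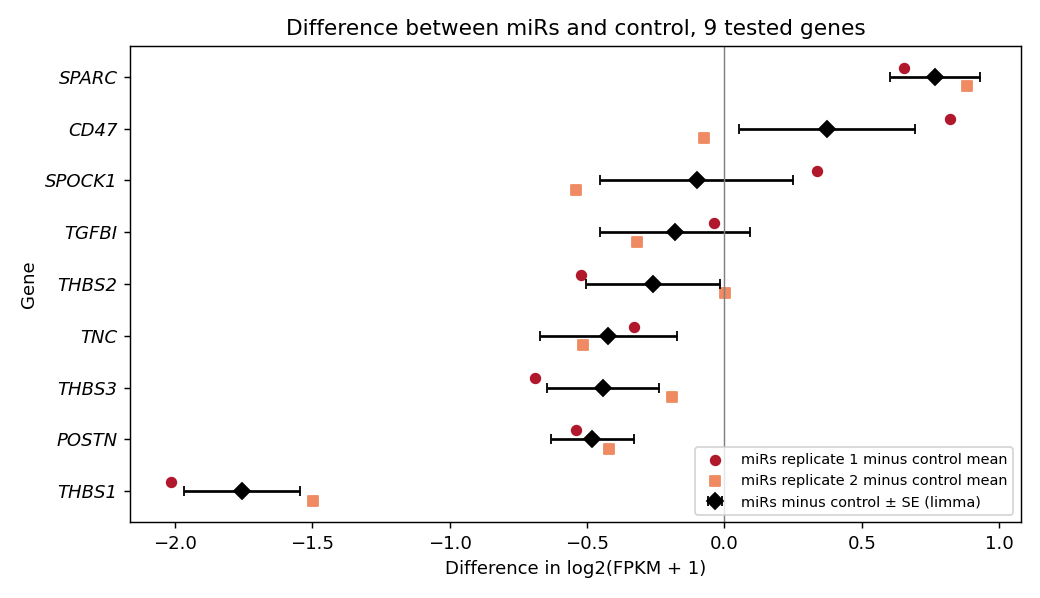
Difference between miRs and control in log2(FPKM + 1) for the 9 tested genes (black diamonds, with the SE from limma), and each miRs library minus the mean of the controls (circles for replicate 1, squares for replicate 2). THBS1 lies far to the left in both libraries and SPARC to the right, while the replicates of CD47 and SPOCK1 lie on either side of 0.

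Of the receptors, CD47, the widely expressed surface protein that binds the C-terminal part of thrombospondin-1 and, through SIRPA on phagocytes, acts as a signal against engulfment, was at 25.3 and 24.5 FPKM in control. It was at 44.8 FPKM in miRs replicate 1 and 23.6 FPKM in miRs replicate 2. Only miRs replicate 1 stood apart, and the other 3 libraries lay within 23.6 to 25.3 FPKM (log2 difference 0.37 ± 0.32 SE, adjusted p = 0.510 in limma). Without miRs replicate 2 the difference was 0.82, which limma called (adjusted p = 0.0125), and without miRs replicate 1 it was −0.076. The interferon-induced genes were also higher in miRs replicate 1: ISG15 was at 3648 FPKM there and 726 FPKM in miRs replicate 2, against 33.8 and 37.5 FPKM in control. The part of that response in the CD47 level was not tested.

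CD36, a scavenger receptor for thrombospondin-1 and oxidised lipids that is typical of microvascular endothelium, platelets, macrophages and adipocytes, was barely detected. It measured 0.304 and 0.290 FPKM in the controls and 0.397 and 0.289 FPKM with miRs, under the minimum for the test, and the groups overlapped. Most markers of the cell types that carry it were low as well. The platelet genes GP9, PF4 and PPBP were listed at 0 in every library and ITGA2B did not exceed 0.0551 FPKM. Of 6 endothelial markers 5 stayed under 1 FPKM in every library, among them PECAM1 and CDH5, and the list summed to 13.7 and 11.1 FPKM in the controls and 13.9 and 5.59 FPKM with miRs, nearly all from TEK. Of 6 blood and macrophage markers 5 stayed under 1 FPKM as well (CD163 and HBA1 at 0 in every library). That list summed to 53.9 and 57.7 FPKM in the controls and 130.6 and 42.6 FPKM with miRs, nearly all from the lysosomal gene CD68. Of 4 adipocyte markers ADIPOQ and LEP were listed at 0 in every library, PLIN1 did not exceed 0.0313 FPKM, and FABP4 measured 1.81 and 1.36 FPKM in the controls and 0.580 and 3.31 FPKM with miRs. That list summed to 1.81 and 1.36 FPKM in the controls and 0.608 and 3.34 FPKM with miRs.

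In order of mean control level the genes ran SPARC, TGFBI, THBS1, TNC, POSTN, CD47, THBS3, SPOCK1, THBS2 and CD36. SPARC and TGFBI overlapped in control and were the only neighbours in that order to do so. In miRs the order differed by the exchange of THBS1 and TNC, whose values overlapped there, so that they cannot be ordered. SPOCK1 also overlapped both of its neighbours, THBS3 and THBS2, in miRs.

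**Figure D4:**
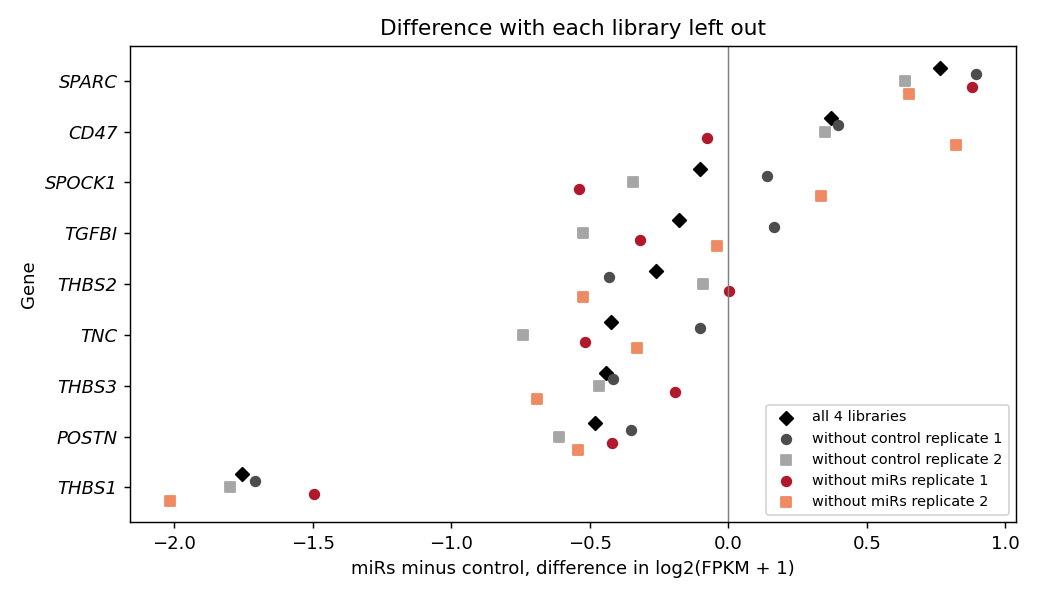
Difference between miRs and control in log2(FPKM + 1) for the 9 tested genes with all 4 libraries (black diamonds) and with each library left out in turn. THBS1 stays between −2.01 and −1.496 and SPARC between 0.64 and 0.89, while SPOCK1, TGFBI, THBS2 and CD47 reach both sides of 0.

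By root mean square distance of log2(FPKM + 1) over the 4 libraries, after taking out each gene's mean, the 3 tested genes closest to THBS1 were MYOCD (0.0627), a coactivator of smooth muscle genes, TUBA1A (0.0834), a tubulin, and NOTCH3 (0.0872). MYOCD measured 5.09 and 5.08 FPKM in the controls and 0.627 and 1.32 FPKM with miRs. TUBA1A, a gene with close paralogs whose level is therefore uncertain, measured 624 and 606 FPKM in the controls and 171 and 213 FPKM with miRs. Closest to SPARC were AIMP2 (0.0259), a scaffold of the tRNA synthetase complex, the semaphorin SEMA6D (0.0372) and the zinc finger gene ZNF714 (0.0378). With 4 libraries in 2 groups such likeness describes mainly the difference between the groups.

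Other matricellular genes that reached the minimum were mostly lower in miRs. So were the abundant check genes ACTB, VIM and GAPDH (log2 differences −0.76, −0.50 and −0.35), while the check gene COL1A1 overlapped (0.31). Of 29 listed (other thrombospondins, SPARC relatives, tenascins, CCN proteins, fibulins and similar proteins), 13 reached the minimum, and in 8 of these both miRs libraries lay below both controls and in 0 above, beside 30.0% lower and 29.5% higher of all tested genes. This list, like those of receptors and TGF-beta genes below, was drawn up with earlier results of these data known. The lists also share genes: CTGF stands here and among the TGF-beta genes, and FN1 among the receptors and the TGF-beta genes. None of the 13 passed in limma over all genes. An unadjusted p under 0.05 was reached by 5, all lower. The median log2 difference over the 13 came to −0.38 (−0.65 without miRs replicate 2), beside −0.0020 over all tested genes, and with no minimum FPKM it was −0.064 over 24 listed genes. MFGE8, an integrin ligand that marks dying cells for uptake, averaged 646 ± 102 FPKM without and 270 ± 7.43 FPKM with miRs (SD, n = 2 each; log2 difference −1.25 ± 0.16 SE, adjusted p = 0.0666 in limma). Its relative EDIL3 was at 46.4 ± 6.85 against 20.1 ± 2.48 FPKM (adjusted p = 0.0731 in limma). The fibulins EFEMP2 and FBLN5, both needed for elastic fibres, and the related EFEMP1 had log2 differences of −0.73, −0.76 and −0.38, while FBLN1 overlapped (−0.20). Of the CCN proteins, CYR61 measured 326 and 330 FPKM in the controls and 152 and 218 FPKM with miRs, and CTGF was at 348 and 374 against 188 and 321 FPKM. The low CCN genes WISP1 and NOV had log2 differences of 0.68 and 0.37 with overlapping groups, and were the 2 of the 13 with a higher mean in miRs. The SPARC relative FSTL1 measured 447 and 476 FPKM in the controls and 399 and 402 FPKM with miRs. Its log2 difference of −0.20 (adjusted p = 0.362 in limma) was small and opposite in direction to that of SPARC.

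Receptors and binding partners of these proteins went in both directions. Of 28 listed, 22 were tested, and 12 were lower and 3 higher with no overlap, beside 30.0% and 29.5% of all tested genes. In limma 0 passed over all genes, while 6 lower and 3 higher had an unadjusted p under 0.05, beside 13.0% and 11.2% of genes tested. The median log2 difference over the 22 was −0.39, against −0.19 when miRs replicate 2 was left out and −0.21 over all 28 with no minimum FPKM. The integrin subunit ITGB3, part of a receptor for thrombospondin-1, periostin and tenascin-C, measured 8.61 and 6.27 FPKM in the controls and 2.28 and 0.880 FPKM with miRs (adjusted p = 0.0880 in limma). Its partner ITGAV measured 31.1 and 26.9 FPKM in the controls and 9.72 and 21.4 FPKM with miRs. CACNA2D1, a calcium channel subunit that binds thrombospondins, measured 8.79 and 7.25 FPKM in the controls and 3.64 and 3.47 FPKM with miRs (adjusted p = 0.0769 in limma). The lipoprotein receptor VLDLR had a log2 difference of −0.78, and SIRPA, the partner of CD47, measured 23.2 and 20.1 FPKM in the controls and 12.2 and 14.7 FPKM with miRs (adjusted p = 0.112 in limma). NOTCH3, a receptor of mural cells that thrombospondin-2 binds, measured 31.7 and 31.2 FPKM in the controls and 6.25 and 9.15 FPKM with miRs (adjusted p = 0.0632 in limma). Higher in both miRs libraries were the integrin subunits ITGA6 (24.7 and 19.7 FPKM in control, 82.1 and 61.5 FPKM with miRs, adjusted p = 0.0656 in limma), ITGA3 (log2 difference 0.60) and ITGA5 (0.97). Among the abundant partners, the log2 difference was −0.74 for fibronectin (FN1), −0.38 for ITGB1 and −0.53 for LRP1. The groups overlapped for CALR (−0.32), SDC4 (−0.089), PDIA3 (−0.084) and SCARB2 (0.34). SCARB2 measured 55.4 and 51.6 FPKM in the controls and 109 and 42.3 FPKM with miRs, so the miRs libraries lay on either side of both controls.

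Genes of the TGF-beta pathway, which lies upstream and downstream of several of the 10, were tested at 24 of 26 listed. With no overlap between the groups 14 were lower and 2 higher in miRs, beside 30.0% and 29.5% of all tested genes. None passed in limma over all genes, and an unadjusted p under 0.05 was reached by 11 lower and 2 higher, beside 13.0% and 11.2% of genes tested. The median log2 difference over the 24 came to −0.41 (−0.66 without miRs replicate 2), beside −0.0020 over all tested genes. The type II receptor TGFBR2 measured 55.1 and 54.6 FPKM in the controls and 25.1 and 20.4 FPKM with miRs (adjusted p = 0.0632 in limma), and the carriers LTBP3, LTBP4 and LTBP2 had log2 differences of −0.84, −0.98 and −1.33, where LTBP1 had −0.056. Of the contractile targets, ACTA2, whose close paralogs make its level uncertain, measured 582 and 367 FPKM in the controls and 127 and 115 FPKM with miRs, and TAGLN had a log2 difference of −0.996. The co-receptor TGFBR3 was the other way, at 3.12 and 3.83 against 7.49 and 6.92 FPKM (adjusted p = 0.0863 in limma). So was SMAD7, the other gene higher with no overlap, at 4.87 and 4.92 against 8.44 and 7.94 FPKM (adjusted p = 0.0936 in limma). The collagens COL1A1, COL1A2 and COL3A1 and the crosslinking enzyme LOX overlapped between the groups, with log2 differences of 0.31, −0.073, 0.34 and −0.31. Smooth muscle markers (4 genes) summed to 668 and 405 FPKM in the controls and 561 and 194 FPKM with miRs, mostly from ACTG2, whose groups overlapped. Of the other 3, CNN1 was lower in both miRs libraries (104 and 67.3 FPKM in the controls, 11.2 and 17.5 FPKM with miRs), as was MYH11 at no more than 0.387 FPKM in any library, while DES was higher (0.361 and 0.590 FPKM in the controls, 7.90 and 2.18 FPKM with miRs). The part of these markers in the values was not tested.

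**Figure D5:**
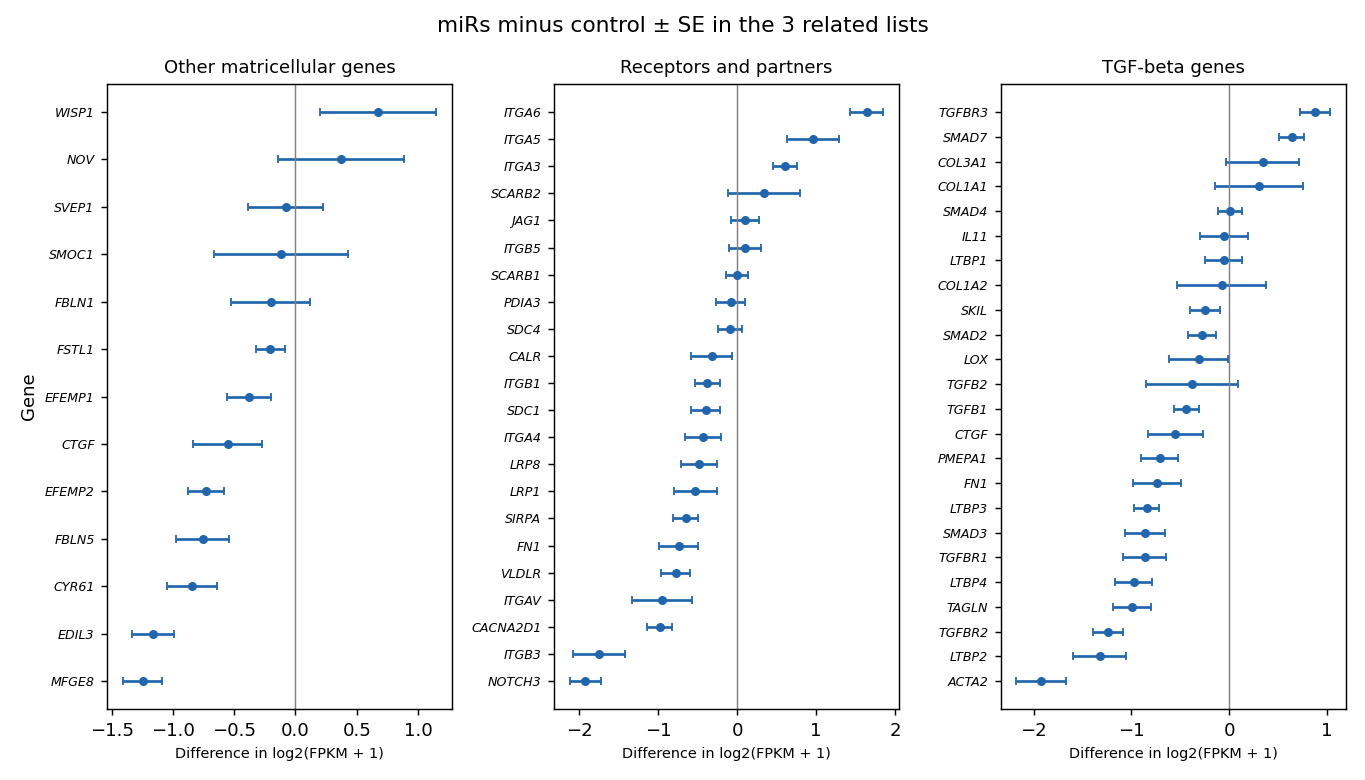
Difference between miRs and control in log2(FPKM + 1) with its SE from limma, for the tested genes of the 3 related lists (13 other matricellular genes, 22 receptors and partners, 24 TGF-beta genes). Most points lie left of 0. To the right lie 2 of 13, 6 of 22 and 5 of 24 genes, of which ITGA6, ITGA5, ITGA3, TGFBR3 and SMAD7 had groups that did not overlap.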

How the data were processed

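Libraries were prepared from the RNA of MRC5 cells (2 control, 2 miRs, grouped by the treatment label) with a stranded kit for polyadenylated RNA, per the labels' protocols. The authors deposited FPKM values, 1 file per library, per the file headers. Per the submitters' processing notes, the tools were Cuffdiff 2.2.1, TopHat2 2.1.1, SAMtools 0.1.18 and Bowtie2 2.2.8, with build hg19. Annotation, strand setting and library scaling are not given there. Since FPKM is not a count, limma 3.58.1 (R 4.3.3) was run on log2(FPKM + 1), 2-sided, with a variance trend, on all genes averaging 1 FPKM or more. Exact permutation of 2 against 2 cannot go below p = 0.333. Log2 differences understate changes of low genes.

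The 10 genes and the lists were chosen with earlier results of these data known. From each list the text names the 6 genes with the smallest p and those averaging at least 50 FPKM; ITGAV, SMAD7, WISP1 and NOV are further names, chosen after seeing the values. Of the TGF-beta list, 1 gene is not reported here and was left out of its counts. The check genes ACTB, GAPDH, VIM and COL1A1 were at 1910 FPKM or more in every library, with log2 differences of −0.76, −0.35, −0.50 and 0.31. On simulated data for miRs against control (11860 genes) calls were made for 7 of 100 genes changed by 1 (log2), 79 of 100 changed by 2 and 6 of 11660 left unchanged. The changed genes were drawn only from those of higher control level, and both groups were given the same spread. In the data 1129 genes were over 2-fold apart between the miRs libraries and 253 between the controls, so these figures may not hold for the data. Alternatives changed the pseudocount (0.1), the minimum (none, or 5 FPKM), the scaling (3 ways), the variance trend or a block for the replicate number, or left out 1 library. Seed matches were searched in Python 3.11.15 in the longest 3′ untranslated region of each gene in GENCODE 29.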

Additional observations from a re-analysis of the deposited data

How the results depend on the processing

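THBS1 was lower and SPARC higher in miRs under all 12 alternatives, as POSTN, THBS3 and TNC were lower. For genes whose groups do not overlap, as here, only the changes of scaling could have turned the direction. The pseudocount and leaving out 1 library cannot turn it, and the minimum, the variance trend and the block leave the difference as it was. The number of called genes was 29, and 0 with no minimum FPKM (limma, 3338 genes at an unadjusted p under 0.05) and between 0 and 3746 with 1 library left out. Leaving out control replicate 1 gave 0 (886 at an unadjusted p under 0.05) and control replicate 2 gave 1, while leaving out miRs replicate 1 gave 1653 and miRs replicate 2 gave 3746; a group of 1 library was given the spread of the remaining group. With each library left out THBS1 ranged from −2.01 to −1.496, SPARC from 0.64 to 0.89, THBS3 from −0.69 to −0.19, THBS2 from −0.52 to 0.0022, TGFBI from −0.52 to 0.17, SPOCK1 from −0.54 to 0.34 and CD47 from −0.076 to 0.82. SPOCK1 was at 0.14 without control replicate 1. THBS1 and SPARC were called only without miRs replicate 1 (adjusted p = 0.00887 and 0.0346 in limma) or miRs replicate 2 (0.00223 and 0.0350). Otherwise their adjusted p ranged up to 0.522 and 0.673 with a control left out. The median of the 10 genes ranged from −0.41 to −0.023. List medians were −0.064 (other matricellular genes) and −0.21 (receptors) with no minimum FPKM, where more genes entered, and −0.64 (other matricellular genes) with a minimum of 5 FPKM. With each library left out they ranged from −0.65 to −0.31 (other matricellular genes), −0.41 to −0.19 (receptors) and −0.66 to −0.37 (TGF-beta). CD36 moved from 0.049 to 0.15 with a pseudocount of 0.1. Rescaling to the same sum shifted the median of all tested genes to 0.050. For the moved values the cause was not tested. The replicate number as a block gave 99 calls and called none of the 10 genes (THBS1 adjusted p = 0.0535 in limma). Deviations of same-numbered libraries correlated at r = 0.20 over genes, but with 2 numbers the samples share only a number. Without read counts, low values such as those of CD36 have unknown precision.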
